A study of Homo sapiens with 9 samples.

Results

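The 9 genes described here receive, carry or clear retinoic acid: the receptors RARA, RARB, RARG, RXRA and RXRB, the binding proteins CRABP1 and CRABP2, and the hydroxylases CYP26A1 and CYP26B1. They were taken by symbol from the 19706 gene entries of the deposited expression table. Polyadenylated RNA was measured in 3 established human neuroblastoma cell lines, each with 3 libraries. Kelly and BE(2)C carry an amplified MYCN gene, and SH-SY5Y does not. No agent was given to any of the lines, retinoic acid included, and all were grown in the same serum-supplemented medium and collected before confluence. BE(2)C and SH-SY5Y are cloned sublines, so each stands for 1 tumour and 1 clone, and with 1 line lacking the amplification MYCN status and line identity cannot be told apart. The labels do not say whether a separate culture stood behind each library of a line, and the tests therefore see the spread among libraries alone, which may be technical.

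Retinoic acid is made inside cells from retinol, the circulating form of vitamin A, by oxidation to retinal and then to the acid. CRABP proteins hold it in the cytoplasm and pass it to the nucleus or to the CYP26 enzymes, which oxidise it for removal. In the nucleus it binds an RAR, which sits on DNA as a heterodimer with an RXR. Without ligand the pair holds corepressors, and with ligand it holds coactivators, so that its target genes are switched on. Neuroblastoma arises from the sympathetic neural crest, retinoic acid makes many of its cell lines extend neurites, and isotretinoin is given to patients to promote differentiation of remaining tumour cells.

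Near a transcription start, 2 of the genes hold a match to the direct repeat that RAR and RXR pairs are known to bind. The window from 250 bases before to 50 bases after each RefSeq transcription start (GRCh38.p14) was searched on both strands for 2 half-sites in the same direction with 5 bases between them, the layout named DR5. The half-site AGGTCA was searched, and so were its variants that start with AGT (AGTTCA), with GGT (GGTTCA) and with GGG (GGGTCA), in any pairing. All 9 genes had a window, and RARB and CYP26A1 held a match. The RARB match lies 53 to 37 bases before a start, at chr3:25428210-25428226 on the plus strand, and overlaps no exon. It is shown first with its flanks, because RARB is the textbook target of its own receptor family, and then beside the CYP26A1 match, with the 2 half-sites and their spacer in capitals.
RARB, chr3:25428170-25428262, plus strand: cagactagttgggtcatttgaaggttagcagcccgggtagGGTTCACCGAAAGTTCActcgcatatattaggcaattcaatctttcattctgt
RARB, chr3:25428204-25428232, plus strand: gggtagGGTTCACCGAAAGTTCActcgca
CYP26A1, chr10:93073797-93073825, plus strand: taaagaTGAACTTTGGGTGAACTaattgt
The CYP26A1 match lies 90 to 74 bases before a start and inside an exon of a longer transcript of the gene. It reads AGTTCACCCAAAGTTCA on the minus strand, and the RARB match reads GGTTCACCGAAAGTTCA on the plus strand. Across all RefSeq windows of the same length, 0.106% of 27305 genes held such a match, and none of 19 retinoic acid response genes with a window did. With a spacer of 1 base the share was 0.161% of genes and with 2 bases 0.051%, and none of the 9 genes was among them. RARB is a known target, and both half-sites of its match are among the variants searched. The shares are therefore not a test of the 9 genes. A match describes these letters only, and no binding was measured.

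Values are given as scaled TPM, which is TPM, the length-corrected share of transcripts, over the gene entries alone, divided by a factor that sets the middle of the ratios between libraries to 1. Because of that correction levels can be compared between genes as far as each gene was quantified equally well, which was not tested. Since TPM keeps no read depth, the depth of the libraries is unknown. Differences are on the log2(scaled TPM + 1) scale, which understates those of low genes, with limma's standard error (SE) and its p-value adjusted over 13076 genes. MYCN was at 5970 ± 77.6 scaled TPM (SD, n = 3) in Kelly, 6050 ± 1088 for BE(2)C and 27.3 ± 1.01 for SH-SY5Y, in the order that the labelled MYCN status gives. All 10 neuroblastoma markers listed passed the filter, although TH, which encodes tyrosine hydroxylase, was at 0, 0.227 and 0.346 scaled TPM in SH-SY5Y, whereas 4 of 18 markers of other cell types were, and 5 of those 18 were listed at 0 in all 9 libraries. The levels of those 18 summed to 2.13 to 5.29 scaled TPM in the Kelly libraries, 6.55 to 13.3 in BE(2)C and 5.34 to 6.70 with SH-SY5Y. Spike-in RNA filled 83.7 to 90.6% of each library's total, and mitochondrial genes took 24.5 to 35.3% of the gene signal in BE(2)C against 16.5 to 19.8% in the other lines. Of 61 abundant spike-ins, 49 differed between Kelly and SH-SY5Y (limma, adjusted p under 0.05), by up to 1.38 on the log2 scale relative to the median spike-in, and 54 differed between Kelly and BE(2)C, by up to 1.20. None differed between BE(2)C and SH-SY5Y with limma, where 4 had an unadjusted p under 0.05. The part of these library differences in the results below was not tested.

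RARA, the retinoic acid receptor alpha, was the most abundant of the receptors in every library and differed in all 3 comparisons of lines. The gene (ENSG00000131759.17) lies at chr17:40309192-40357643 on the plus strand of GRCh38. Its level was 58.9, 56.2 and 66.5 scaled TPM in the Kelly libraries, 38.3, 43.5 and 42.7 in BE(2)C, and 32.4, 32.9 and 35.4 in SH-SY5Y. The 3 lines thus stood in the order Kelly, BE(2)C, SH-SY5Y with no overlap between their libraries. Kelly was above SH-SY5Y by 0.83 ± 0.09 (log2 difference ± SE; limma adjusted p = 6.28e-05) and above BE(2)C by 0.53 ± 0.09 (adjusted p = 0.00113). In bulk RNA, fewer expressing cells and less RNA per cell cannot be told apart, here and below. The difference between BE(2)C and SH-SY5Y was 0.30 ± 0.09 (limma adjusted p = 0.0208). It was -0.15 when only library totals were equalised (limma adjusted p = 0.230) and -0.23 as deposited (0.123). With totals equalised after mitochondrial genes were left out, it was 0.092 (0.440). None of these settings used the factor that centres the ratios between libraries. In the main scaling, the adjusted p of this difference was 0.0548 to 0.0673 without BE(2)C library 2 or 3 or SH-SY5Y library 1 or 2. The Kelly to SH-SY5Y difference was 0.12 on the values as deposited, spike-ins included (limma adjusted p = 0.410). Those values are smaller, 5.45 to 7.49 TPM for RARA in Kelly, and 1 was still added to them. Here and below, differences as deposited are therefore understated more than those of scaled TPM.

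RARG, the receptor gamma, was the next most abundant RAR, and its line means stood in the opposite order to those of RARA, although none of the differences passed. It lies at chr12:53210567-53232980 on the minus strand (ENSG00000172819.16). The libraries held 11.0, 10.8 and 12.4 scaled TPM in Kelly, 9.07, 15.9 and 16.3 in BE(2)C and 16.5, 16.0 and 17.6 in SH-SY5Y. Kelly lay wholly below SH-SY5Y, whereas BE(2)C library 1 was lowest of all 9, its library 2 lay just below SH-SY5Y, and its library 3 fell within the SH-SY5Y range. Kelly was at -0.52 ± 0.21 against SH-SY5Y (limma adjusted p = 0.0603), BE(2)C at -0.30 ± 0.21 (95% interval -0.77 to 0.16, adjusted p = 0.235) and Kelly at -0.21 ± 0.21 against BE(2)C (adjusted p = 0.422). Without BE(2)C library 1 the Kelly difference from SH-SY5Y had an adjusted p of 0.00605, and that from BE(2)C became -0.47 with an adjusted p of 0.0187. The Kelly difference from SH-SY5Y also passed with library totals alone (-0.65, limma adjusted p = 0.0165) and on the values as deposited (-0.82, adjusted p = 1.63e-04). It passed with totals that left mitochondrial genes out (-0.66, limma adjusted p = 0.0279). None of these scalings used the factor that centres the ratios between libraries. In the main scaling it passed when only those lines were fitted (limma adjusted p = 0.0106). The BE(2)C difference from SH-SY5Y passed with library totals alone (-0.74, limma adjusted p = 0.00745) and as deposited (-0.61, adjusted p = 0.00152), and was -0.050 without BE(2)C library 1 (adjusted p = 0.768).

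RARB, the receptor beta, was scarce in all 3 lines and lowest in BE(2)C. The gene spans chr3:25174332-25597932 on the plus strand (ENSG00000077092.18), and the start near the match printed above is one of several. Its level was 2.09, 1.11 and 0.751 scaled TPM in Kelly, 0.422, 0.189 and 0.114 in BE(2)C, and 1.05, 1.30 and 1.45 in SH-SY5Y. Each BE(2)C library lay below every library of the other lines, and the Kelly libraries spanned the SH-SY5Y range. BE(2)C was lower than SH-SY5Y by 0.87 ± 0.22 (limma adjusted p = 0.00803), and Kelly was higher than BE(2)C by 0.87 ± 0.22 (adjusted p = 0.00956). Kelly and SH-SY5Y had no detected difference (limma 95% interval -0.51 to 0.50, adjusted p = 0.989). The gene reached the filter of 1 scaled TPM in 3 libraries through 2 Kelly and 3 SH-SY5Y libraries and none of BE(2)C, so the low BE(2)C level was partly fixed by the filter. With quantile normalisation the BE(2)C differences missed the threshold, at -0.51 (limma adjusted p = 0.0808) and 0.61 (adjusted p = 0.0503). Their size follows the pseudocount, from -2.09 and 2.04 with 0.1 to -0.26 and 0.26 with 5, past the threshold in each. RARB overlaps TOP2B on the opposite strand, a topoisomerase gene whose deposited log10 value reached 1.57, and no source used here says whether the quantification used strand.

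**Figure D1:**
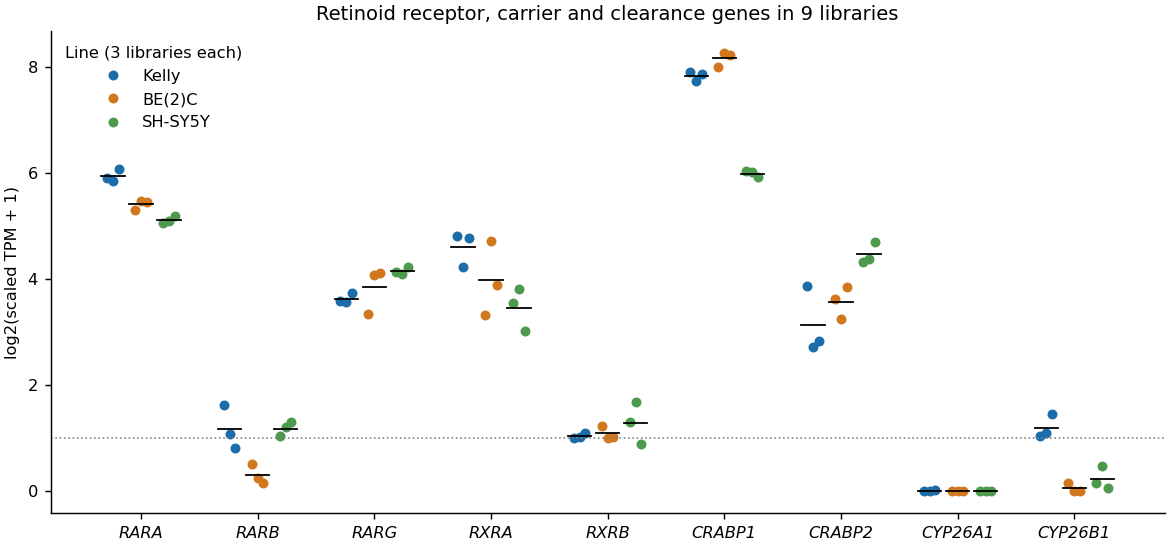
Scaled TPM of the 9 genes on a log2(value + 1) axis (each point is 1 library, each short line the mean of 3; the dotted line marks 1 scaled TPM). CRABP1 is highest in every line, RARA leads the receptors, and the CYP26 genes sit near 0 except for CYP26B1 in Kelly, which lies just above the dotted line.

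The makeup of the RAR pool does not depend on scaling between libraries. RARA made up 82.6 ± 0.823% of the summed RAR signal in Kelly (SD, n = 3), 75.1 ± 4.36% for BE(2)C and 65.1 ± 0.373% for SH-SY5Y. RARG made up 15.6 ± 0.328%, 24.4 ± 4.72% and 32.4 ± 0.602% in the same order of lines. RARB supplied 1.83 ± 0.994%, 0.465 ± 0.367% and 2.45 ± 0.310%. The RARA and RARG shares did not overlap between any pair of lines, and each of those exact two-sided permutation tests gave p = 0.1, the smallest that 3 against 3 libraries allow, or 0.162 after adjustment over 21 such tests. Summed RAR signal was 73.2 ± 5.83 scaled TPM in Kelly, 55.5 ± 6.66 for BE(2)C and 51.5 ± 2.51 for SH-SY5Y, and the ranges of the last pair overlapped.

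**Figure D2:**
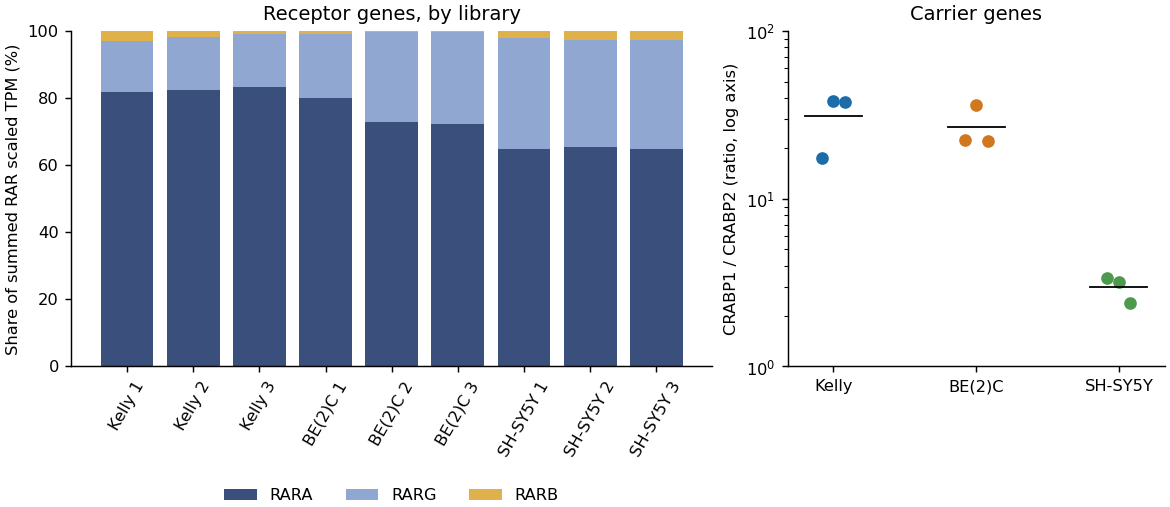
Left, share of the summed RAR signal (%) taken by each receptor in each of the 9 libraries; right, the CRABP1 to CRABP2 ratio on a log axis (points are libraries, lines are means of 3). RARA's share is highest in Kelly and lowest in SH-SY5Y, and the CRABP1 to CRABP2 ratio is lowest in SH-SY5Y.

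RXRA, the retinoid X receptor alpha that serves as partner to the RARs and to several other nuclear receptors, was highest in Kelly. It lies at chr9:134317098-134440585 on the plus strand (ENSG00000186350.10). The libraries held 27.1, 17.6 and 26.3 scaled TPM in Kelly, 9.03, 25.1 and 13.7 in BE(2)C and 10.6, 12.9 and 7.08 in SH-SY5Y. The Kelly and SH-SY5Y libraries did not overlap, whereas BE(2)C reached across both. Kelly was above SH-SY5Y by 1.15 ± 0.35 (limma adjusted p = 0.0199). BE(2)C differed from SH-SY5Y by 0.52 ± 0.35 (95% interval -0.27 to 1.31, limma adjusted p = 0.229) and Kelly from BE(2)C by 0.63 ± 0.35 (adjusted p = 0.161), and neither passed. The Kelly to SH-SY5Y difference missed the threshold without Kelly library 1 (adjusted p = 0.0649), Kelly library 3 (0.0611) or SH-SY5Y library 3 (0.0727), and was 0.34 on the values as deposited (limma adjusted p = 0.184). Without BE(2)C library 2, the Kelly to BE(2)C difference was 0.997 (limma adjusted p = 0.0246), and with library totals alone it was 0.93 (adjusted p = 0.0284).

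RXRB, the receptor X beta, was listed at a low level in every library and differed between no lines. It lies at chr6:33193588-33200688 on the minus strand (ENSG00000204231.10), inside the major histocompatibility region. Its level was 1.01, 1.02 and 1.13 scaled TPM in Kelly, 1.35, 1.001 and 1.04 in BE(2)C and 1.48, 2.20 and 0.848 in SH-SY5Y. The lines overlapped, and the limma adjusted p was 0.332 to 0.864 over the 3 comparisons. Neighbouring genes were also listed low: 6 of 17 coding genes within 200 kb (35.3%) stood at 0 in all 9 libraries, against 12.2% of 18506 coding genes in the table. Those at 0 were the class II histocompatibility genes HLA-DOA, HLA-DPA1 and HLA-DPB1, the collagen gene COL11A2, HSD17B8 and SLC39A7. The last is a zinc transporter gene that overlaps RXRB on the opposite strand. RPS18, which encodes a ribosomal protein that every cell uses, had a highest deposited log10 value of 0.0434 and was above 0 in 6 libraries. KIFC1, a mitotic kinesin gene at the far edge of that interval, reached 1.26. Within the same distance 1 of 2 coding genes around CYP26A1 and 1 of 16 around CRABP2 were at 0 in all libraries, and none was around RARA, RARB, RARG, RXRA, CRABP1 or CYP26B1. The low RXRB values stand beside low values of these neighbours, RPS18 among them, and the part of the quantification in the low values was not tested.

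**Figure D3:**
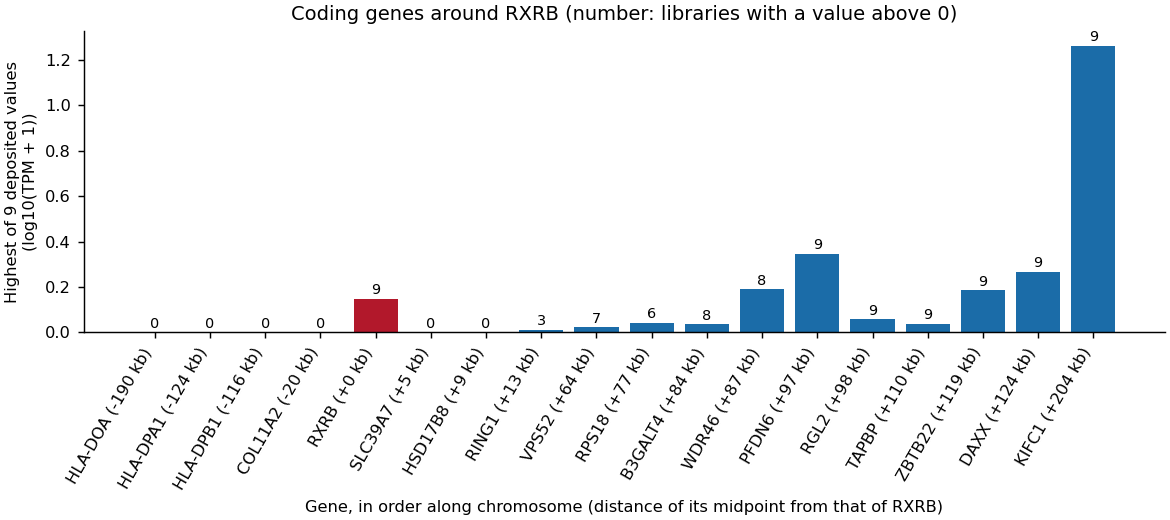
Highest deposited value, log10(TPM + 1), among the 9 libraries for each coding gene around RXRB, in order along the chromosome, with the number of libraries above 0 over each bar. The genes beside RXRB, RPS18 included, lie near 0, and KIFC1 reaches 1.26.

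CRABP1, the cellular retinoic acid binding protein that is linked to delivery of the ligand to its degrading enzymes, was the most abundant of the 9 genes and was higher in both MYCN-amplified lines than in SH-SY5Y. It lies at chr15:78340324-78348230 on the plus strand (ENSG00000166426.7). Its level was 239, 213 and 231 scaled TPM in Kelly, 254, 305 and 299 in BE(2)C and 64.5, 63.3 and 59.4 in SH-SY5Y. The 6 libraries of the MYCN-amplified lines lay between 213 and 305, far above the 59.4 to 64.5 of SH-SY5Y, and the Kelly libraries lay below those of BE(2)C. Among tested genes, 95.7% lay below it in Kelly, 96.3% for BE(2)C and 80.5% for SH-SY5Y. BE(2)C was above SH-SY5Y by 2.17 ± 0.08 (limma adjusted p = 7.06e-08) and Kelly by 1.85 ± 0.08 (adjusted p = 1.92e-07). Over 20 alternatives these were 1.53 to 2.26 and 1.08 to 1.90, all past the threshold, with the lowest on the values as deposited. Kelly was below BE(2)C by 0.33 ± 0.08 (limma adjusted p = 0.00925), a difference that vanished when only library totals were equalised (-0.0031, adjusted p = 0.980) and missed the threshold with quantile normalisation (-0.18, adjusted p = 0.135).

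CRABP2, the binding protein that carries retinoic acid into the nucleus and hands it to RAR, was highest in SH-SY5Y, where CRABP1 was lowest. It lies at chr1:156699606-156705816 on the minus strand (ENSG00000143320.8). The libraries held 13.6, 5.55 and 6.07 scaled TPM in Kelly, 11.2, 8.44 and 13.5 in BE(2)C and 19.1, 19.8 and 24.8 in SH-SY5Y. The SH-SY5Y libraries were all above those of the other lines, which overlapped each other. Kelly was below SH-SY5Y by 1.33 ± 0.31 (limma adjusted p = 0.00483), past the threshold in all 20 alternatives, and BE(2)C by 0.90 ± 0.31 (adjusted p = 0.0301). The BE(2)C difference missed the threshold without any of 5 libraries, BE(2)C 1 or 2 or SH-SY5Y 1, 2 or 3 (limma adjusted p = 0.0522 to 0.0997), and with quantile normalisation (adjusted p = 0.0673). Kelly was at -0.44 ± 0.31 against BE(2)C (limma adjusted p = 0.262), and at -0.80 without Kelly library 1 (adjusted p = 0.0156).

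The ratio of the carriers set SH-SY5Y apart. The CRABP1 to CRABP2 ratio was 17.6, 38.3 and 38.0 in Kelly, 22.6, 36.1 and 22.2 in BE(2)C and 3.38, 3.20 and 2.39 in SH-SY5Y. Every MYCN-amplified library was above every SH-SY5Y library, and Kelly and BE(2)C overlapped. The exact two-sided permutation p was 0.1 for each against SH-SY5Y, the smallest possible, and 0.8 between Kelly and BE(2)C. CRABP1 was above CRABP2 in all 9 libraries.

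The hydroxylases that clear retinoic acid were at or near 0 in these untreated cells, apart from CYP26B1 in Kelly, where it was scarce. Its Kelly mean lay above 9.18% of tested genes, and its Kelly values as deposited, spike-ins included, were 0.0969 to 0.194 TPM. CYP26A1, whose DR5 match is printed above (chr10:93073475-93077890, plus strand, ENSG00000095596.11), was listed at 0 in 8 libraries and at 0.0202 scaled TPM in Kelly library 3, and it was not tested. CYP26B1 (chr2:72129238-72148038, minus strand, ENSG00000003137.8) held 1.05, 1.13 and 1.72 scaled TPM in Kelly, 0.106, 0 and 0 in BE(2)C and 0.117, 0.390 and 0.0433 in SH-SY5Y. All Kelly libraries were above the other 6, which overlapped. The Kelly difference was 0.96 ± 0.17 from SH-SY5Y (limma adjusted p = 0.00135) and 1.14 ± 0.17 from BE(2)C (adjusted p = 5.12e-04). The gene passed the filter only through Kelly and therefore had to differ, so these tests support nothing further. Their size follows the pseudocount, at 2.46 and 3.43 with 0.1 and 0.28 and 0.32 with 5. BE(2)C was at -0.18 ± 0.17 against SH-SY5Y (limma adjusted p = 0.391). Of the related genes outside the 9, CYP26C1, the remaining member of the enzyme family, was listed at 0 in all libraries. RXRG, the remaining RXR, was listed at 0 in BE(2)C and SH-SY5Y and at 0.391, 0.125 and 0.794 in Kelly.

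**Figure D4:**
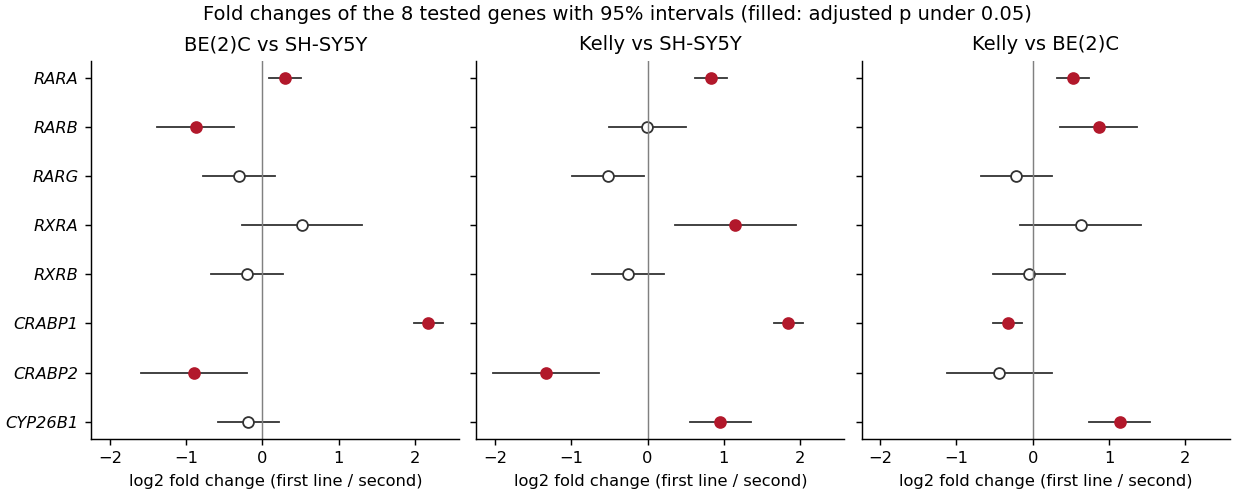
Log2 differences in log2(scaled TPM + 1) of the 8 tested genes for each pair of lines (points with 95% intervals from limma, filled where the adjusted p was under 0.05). CRABP1 stands farthest from 0 against SH-SY5Y, and CRABP2 lies on the other side of 0.

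Counted over the group, 8 of the 9 genes were tested. Against SH-SY5Y, 4 passed in BE(2)C, RARA and CRABP1 higher and RARB and CRABP2 lower, where 59.4% of all tested genes passed (28.6% higher and 30.7% lower). In Kelly 5 passed, RARA, RXRA, CRABP1 and CYP26B1 higher and CRABP2 lower, where 55.3% of all genes did (28.1% higher and 27.2% lower). Between Kelly and BE(2)C 4 passed, RARA, RARB and CYP26B1 higher in Kelly and CRABP1 lower, against 52.5% of all genes (27.9% higher and 24.6% lower). The shares are near those of all genes, so the counts say nothing particular about the group. The libraries of the compared lines did not overlap for 4, 6 and 4 of the 8, in that order, against 66.1%, 63.7% and 58.3% of all tested genes. The median differences of the tested members were -0.19, 0.41 and 0.24 in that order of comparisons, beside -0.04, -0.0047 and 0.02 over all genes. They include CYP26B1 and RARB, whose passing of the filter depended on the lines in which they were higher.

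The supply side of the pathway differed in named enzymes and carriers. With BE(2)C set against SH-SY5Y, 28.6% of all tested genes passed as higher and 30.7% as lower. For Kelly set against SH-SY5Y these shares were 28.1% and 27.2%, and for Kelly set against BE(2)C 27.9% and 24.6%. The all-gene medians were -0.04, -0.0047 and 0.02. Whether the counts and medians of this list and the later ones depart from those of all genes was not tested. Of 12 genes of retinol uptake, binding and storage, 4 were tested, of which 1 was higher and 2 lower in BE(2)C than in SH-SY5Y, and 2 higher and 1 lower in Kelly. Between Kelly and BE(2)C 2 moved each way, and the median differences of the 4 were -0.66, 0.75 and 0.44 in the order of comparisons used above. RBP5, counted as higher in Kelly in both of its comparisons, passed the filter only with its Kelly libraries (3.69, 2.26 and 2.52 scaled TPM). The filter thus partly fixed its calls. STRA6, the membrane receptor that takes up retinol, held 54.9, 67.1 and 63.5 scaled TPM in BE(2)C, 26.1, 32.7 and 38.0 in Kelly and 14.2, 16.1 and 16.4 in SH-SY5Y. Its lines did not overlap, and its level rose above SH-SY5Y by 1.92 ± 0.15 in BE(2)C (limma adjusted p = 4.18e-06) and by 0.99 ± 0.15 in Kelly (adjusted p = 3.49e-04), these being 1.15 (adjusted p = 5.99e-05) and 0.25 (adjusted p = 0.176) on the values as deposited.

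Of 17 genes of retinoic acid synthesis and retinal reduction, 7 were tested: 3 were higher and 2 lower in BE(2)C than in SH-SY5Y, 2 higher and 3 lower in Kelly than in SH-SY5Y, and 1 higher and 3 lower in Kelly than in BE(2)C. Their median differences were -0.28, -0.05 and -0.22. ALDH8A1, counted as higher in Kelly in both of its comparisons, reached 1 scaled TPM in Kelly alone (3.43, 4.56 and 1.55). The filter thus fixed its calls. ALDH1A3, a dehydrogenase that makes retinoic acid from retinal, held 13.1, 12.3 and 15.4 scaled TPM in SH-SY5Y, 0.282, 1.20 and 0.822 in BE(2)C and 0.527, 1.22 and 2.06 in Kelly. SH-SY5Y was far above both other lines, whose difference from it was -3.07 ± 0.29 in BE(2)C (limma adjusted p = 1.76e-05) and -2.73 ± 0.29 in Kelly (adjusted p = 4.39e-05). Its relatives ALDH1A1 and ALDH1A2 reached at most 0.124 and 0.233 scaled TPM in any library. RDH10, which oxidises retinol to retinal, had the reverse order, at 10.1 scaled TPM on average in BE(2)C, 8.53 for Kelly and 2.998 for SH-SY5Y, with differences of 1.48 ± 0.15 (limma adjusted p = 2.88e-05) and 1.26 ± 0.15 (adjusted p = 9.63e-05) from SH-SY5Y. Over 20 alternatives, all past the threshold, these ran from 0.52 to 1.78 and from 0.33 to 1.48, and those of ALDH1A3 from -4.14 to -1.63 and from -3.49 to -1.56. DHRS3, which reduces retinal back to retinol and is itself a response gene, was listed at 0 in Kelly and BE(2)C and reached 0.289 in SH-SY5Y.

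All 21 coregulators of the receptors listed were tested, with 7 higher and 7 lower in BE(2)C than in SH-SY5Y and 9 higher and 3 lower in Kelly. Between Kelly and BE(2)C 7 were higher and 2 lower, and the medians were -0.03, 0.12 and 0.09. PRAME, a tumour antigen that acts as a repressor of RAR signalling, held 1.34, 1.43 and 1.06 scaled TPM in BE(2)C, 31.9, 18.9 and 37.4 in Kelly and 32.6, 26.2 and 26.2 in SH-SY5Y. BE(2)C stood alone at the low end, by 3.68 ± 0.24 below SH-SY5Y (limma adjusted p = 1.52e-06). ZNF423, a zinc finger cofactor of RAR and RXR, averaged 12.8 scaled TPM in SH-SY5Y against 2.04 in BE(2)C and 1.87 in Kelly (differences -2.23 ± 0.24 and -2.26 ± 0.24, limma adjusted p = 4.05e-05 and 4.41e-05). Over the alternatives, all past the threshold, the PRAME difference was -4.37 to -2.36 and those of ZNF423 were -2.70 to -1.35 and -2.71 to -1.37. NRIP1, a ligand-dependent corepressor and itself a response gene, held 42.8, 45.6 and 42.8 scaled TPM in BE(2)C and 27.5, 26.6 and 25.4 in Kelly, and it was listed at 0 in all 3 SH-SY5Y libraries. No fold is given against those zeros, which can be failed estimates. The counts above still include NRIP1 as higher in BE(2)C and in Kelly than in SH-SY5Y. In SH-SY5Y 4 genes had this form, at 0 in every library with a mean of 20 or more in both other lines, and in Kelly and in BE(2)C 3 had it.

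Another list held 18 genes: partners of RXR, COUP-TF and other nuclear receptors, and the carrier FABP5. Of these 13 were tested, with 3 higher and 5 lower in BE(2)C than in SH-SY5Y and 6 higher and 3 lower in Kelly. Between Kelly and BE(2)C 3 were higher and 4 lower, and the medians were -0.09, 0.23 and -0.01. NR2F2, a COUP-TF receptor that binds many of the same repeats as RAR and RXR, held 61.4, 40.4 and 75.7 scaled TPM in BE(2)C, 43.7, 60.4 and 71.2 in Kelly and 0.0947, 0.153 and 0.0710 in SH-SY5Y. It was close to 0 in SH-SY5Y and abundant in both other lines, with differences of 5.72 ± 0.25 in each (limma adjusted p = 1.28e-07 and 1.47e-07), which were 2.92 to 8.14 and 2.81 to 8.14 over the alternatives. FABP5, a fatty acid carrier that can also bring retinoic acid to the receptor PPARD, averaged 607 scaled TPM in BE(2)C, 462 for Kelly and 69.2 for SH-SY5Y. Its differences from SH-SY5Y were 3.12 ± 0.10 and 2.72 ± 0.10 (limma adjusted p = 2.06e-08 and 4.57e-08). The line means stood in the same order as those of CRABP1. Kelly was below BE(2)C by 0.40 ± 0.10 (limma adjusted p = 0.00663). Over 20 alternatives this difference was -0.53 to -0.073, with a limma adjusted p of up to 0.605.

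Of 28 retinoic acid response genes in the table, 18 were tested, and 4 were listed at 0 in all libraries. In BE(2)C 5 were higher and 9 lower than in SH-SY5Y, where 28.6% and 30.7% of all tested genes were. In Kelly 5 were higher and 8 lower (28.1% and 27.2% of all genes). Between Kelly and BE(2)C 4 moved each way (27.9% and 24.6% of all genes). These counts include calls fixed by the filter. NTRK2 (1.60 to 1.77 scaled TPM) and CDX1 (1.11 to 1.80), lower in both other lines, reached 1 in SH-SY5Y alone. TGM2, at 2.87 to 3.02, reached it in BE(2)C alone. NRIP1 is also counted as higher in BE(2)C and in Kelly, against its zeros in SH-SY5Y. The median differences were -0.71, -0.18 and 0.14, beside -0.04, -0.0047 and 0.02 over all genes. NAV2, a neuron navigator gene known to respond to retinoic acid, averaged 19.5 scaled TPM in SH-SY5Y, 1.04 in BE(2)C and 0.899 in Kelly. It was lower in both than in SH-SY5Y, by 3.33 ± 0.17 and 3.45 ± 0.17 (limma adjusted p = 3.87e-07 and 3.49e-07), with differences of -4.11 to -1.97 and -4.35 to -2.01 over the alternatives. SCG2, which encodes a granin of secretory vesicles, averaged 664 in BE(2)C, 118 in SH-SY5Y and 51.4 in Kelly, so that its differences from SH-SY5Y had opposite signs, 2.49 ± 0.06 and -1.18 ± 0.06 (limma adjusted p = 9.999e-09 and 5.31e-07). NEDD9, a docking protein of focal adhesions, averaged 0.493 in BE(2)C against 11.6 in SH-SY5Y and 7.74 in Kelly.

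**Figure D5:**
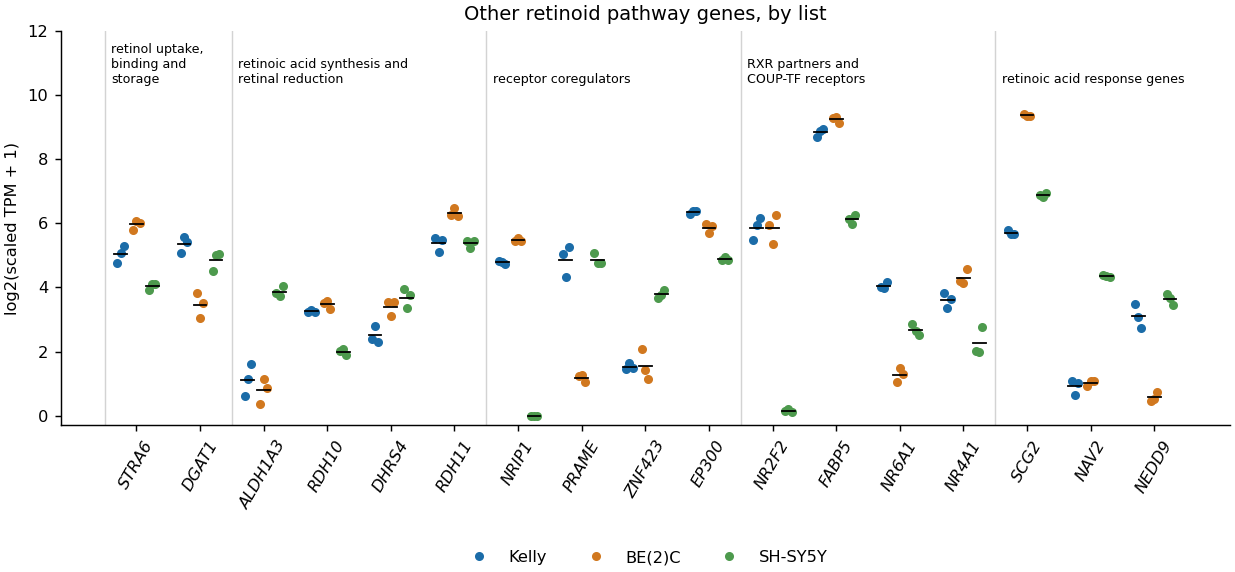
Log2(scaled TPM + 1) of named genes of the surrounding pathway by list (points are libraries, short lines means of 3; NRIP1 is drawn once, with the coregulators). NR2F2 is near 0 and NRIP1 at 0 in SH-SY5Y, where ALDH1A3, ZNF423 and NAV2 are highest.

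Other genes with a pattern like that of 3 members were found by the smallest root mean square difference of centred log2 values over the 9 libraries. For CRABP1 these included ASIC1 at 0.07, an acid-sensing ion channel gene, and CTSC at 0.12, where the line means of CRABP1 spanned 2.17. For CRABP2, whose line means spanned 1.33, they were TMEM107 at 0.20, HDAC6 at 0.21 and ZNF425 at 0.22. For RXRA, whose line means spanned 1.15, they were ZCCHC4 at 0.27, SMYD3 at 0.28 and PNPLA7 at 0.29. The likeness describes these 9 libraries, which share lines and scaling.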

How the data were processed

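Expression was measured in 9 libraries of 3 lines, with groups taken from the labels. The table deposited by the authors holds log10 values, read from the values themselves as log10(TPM + 1); per the submitters' processing notes, GRCh38, Salmon 0.3.2 and HISAT 0.1.6 were used, in roles not stated there. Of 19837 entries, 92 spike-ins and 11 reporter or selection markers were left out. Another 28 entries with a date for a symbol stayed in the totals and the scaling factor only. The remaining values were back-transformed, scaled to 1000000 per library and divided by a trimmed-mean factor (0.758 to 1.17). Genes at 1 or more in 3 libraries were fitted with limma 3.58.1 (R 4.3.3, trend, all lines, pseudocount 1, Benjamini-Hochberg below 0.05), after tests on simulated data. Shares and ratios used exact permutation tests.

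The members and lists were chosen with earlier results of these data known. The genes named from each list were up to 4 called ones with the largest change and a mean of 5 or more in a line. Others named (ALDH1A1, ALDH1A2, DHRS3, RXRG, CYP26C1 and the neighbours of RARB and RXRB) were chosen by role or place after their values were seen. RBP5, ALDH8A1, NTRK2, CDX1 and TGM2 are named only for how they passed the filter. Of the genes these rules name, 2 are not reported here. Gene coordinates are those of GENCODE release 29. Alternatives were other scalings, pseudocounts and filters, fits of only 2 lines, a replicate block and each library left out.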

Additional observations from a re-analysis of the deposited data

How the results depend on the processing

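Of 59 differences past the threshold in limma among the members, the genes named by rule and MYCN, 46 stayed past it in the same direction in every alternative that tested the gene. The genes named by rule were picked for large called changes in these same data, so that total says little. Both the 59 and the 46 include NRIP1 against its zeros in SH-SY5Y. Among the members, CRABP1 against SH-SY5Y in both lines, CRABP2 in Kelly against SH-SY5Y and RARA in Kelly against BE(2)C stayed. So did both CYP26B1 calls, which the filter fixed. Every other member call missed the threshold in at least 1 alternative. The number of members past the threshold was 4 in BE(2)C against SH-SY5Y and 2 with quantile normalisation, and 2 to 4 with 1 library left out. It was 5 of 8 tested in Kelly against SH-SY5Y, 4 higher and 1 lower, and 4 to 6 with 1 library left out. On the values as deposited it was 3 of 5 tested there, 1 higher and 2 lower. Between Kelly and BE(2)C it was 4, and 2 with quantile normalisation. As deposited and with a filter at 5 scaled TPM it was 2, with 5 members tested in each. With 1 library left out it was 4 to 5. Directions turned for RARA in BE(2)C against SH-SY5Y (-0.15 with library totals, -0.23 as deposited), for RXRB in BE(2)C against SH-SY5Y (0.21 with quantile normalisation), and for Kelly against BE(2)C with library totals for RARG (0.088) and RXRB (0.11), the latter being -0.092 to 0.023 with 1 library left out. RARB in Kelly against SH-SY5Y lay near 0 and turned to 0.091 with quantile normalisation, 0.0067 with a pseudocount of 5 and to 0.0074 to 0.18 without Kelly library 2 or 3 or SH-SY5Y library 2 or 3, with a range of -0.23 to 0.18 over all libraries left out in turn. The cause was not tested. The all-gene median moved to -0.44 in BE(2)C against SH-SY5Y with library totals and as deposited, and to -0.55 in Kelly against SH-SY5Y as deposited; the share of called genes that were higher went from 48.2% to 23.6% and 18.2%, and from 50.8% to 12.1%. Between Kelly and BE(2)C the median moved to 0.31 with library totals, where 74.3% of called genes were higher against 53.2%. Equalising totals with mitochondrial genes left out, also without the trimmed-mean factor, gave 36.3% in BE(2)C against SH-SY5Y. The like setting with all genes in the totals gave the 23.6%. Depth is unknown and limits what can be said of the genes near 0.

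Replicate numbers did not pair the libraries: the residual correlation of same-numbered libraries was -0.05 to 0.03. With a replicate block the genes past the threshold numbered 7544, 6980 and 6634, against 7764, 7230 and 6861 without it, in BE(2)C against SH-SY5Y, Kelly against SH-SY5Y and Kelly against BE(2)C, and the members 4, 5 and 4.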
